A study of Homo sapiens with 12 samples.

Results

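The cytosolic ribosomal protein genes encode the proteins of the ribosome outside mitochondria. They were taken as the genes whose symbol is RPL or RPS with a number and an optional A or X, together with RPLP0, RPLP1, RPLP2 and RPSA. The rule found 77 of the 59498 genes counted, 31 of the small and 46 of the large subunit, and all 77 passed the filter on low counts. Paralogs outside this naming, such as RPL22L1 and RPS27L, were not members. A ribosome is assembled in the nucleolus from ribosomal RNA and 1 copy of nearly every one of these proteins, so cells keep their supply in proportion. Most of the mRNAs start with a C followed by a run of pyrimidines, the 5′ terminal oligopyrimidine (TOP) tract, through which mTOR signalling and the protein LARP1 set their translation and stability. Because proliferating cancer cells spend much of their transcription on ribosomes, these mRNAs are among the most abundant in a cell line.

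The libraries came from SKOV-3, an epithelial ovarian adenocarcinoma line, and from SKOV-3 CDDP, its cisplatin-resistant derivative. Each line was measured with wild-type KDM5A and KDM5B and as a KDM5A, KDM5B double knockout, genes that encode histone H3 lysine 4 demethylases. The 4 groups, parental, parental knockout, resistant and resistant knockout, had 3 poly(A)-selected RNA libraries each, numbered 1 to 3. The labels do not say whether a knockout was 1 clone or a pool, whether cisplatin was present at harvest, or whether the 3 libraries of a group are separate cultures. All p-values therefore rest on variation among libraries that could be technical.

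Libraries held 15659352 to 19706754 counts. KDM5A was lower in 6 of 6 knockout libraries than in every control of its background, at 19.7 ± 3.60 against 37.3 ± 5.59 CPM (counts scaled to the library's size; SD, n = 3 each) in the parental background and 14.8 ± 2.82 against 37.4 ± 3.49 in the resistant one (two-sided exact permutation p = 0.005, the smallest possible). KDM5B was below every control in 2 of 6 (exact permutation p = 0.445), so its RNA does not check that label. PAX8, ERBB2, KRT8 and KRT18 were present in all 12 libraries. The epithelial marker EPCAM was at 24.6 to 50.04 CPM in the parental and 1.52 to 14.1 CPM in the resistant background, KRT7 at 1.74 to 38.3 CPM and MUC16 at or below 4.08 CPM. The summed level of 7 fibroblast markers was 1.73 to 7.09 CPM in parental, 1.95 to 27.8 in parental knockout, 346 to 948 in resistant and 2516 to 4435 in resistant knockout libraries. Of these 7 markers, 1, 3, 3 and 4 reached 1 CPM in the respective groups, and THY1 stayed below 1 CPM everywhere. The marker sum moved with the background, as did the member differences given here. It also rose without overlap with the knockout in the resistant background, a contrast in which no member was called. The part of the marker sum in the member differences was not tested. In bulk RNA, fewer cells of a type and less RNA per cell cannot be told apart.

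RefSeq start windows (assembly GRCh38.p14) existed for 62 of the 77 members. The windows of 9 members whose share of the family differed between the lines, picked after their values were seen, are shown because the start tract is the sequence feature that unites the family. Each runs 5′ to 3′ from 12 bases before to 18 bases from the annotated start, and capitals mark the pyrimidine run that begins at that start.
RPLP0, chr12:120201094-120201123, minus strand: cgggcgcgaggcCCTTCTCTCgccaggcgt
RPL13A, chr19:49487596-49487625, plus strand: caaaacctcctcCTTTTCCaagcggctgcc
RPL28, chr19:55385920-55385949, plus strand: cccctcgccttcCTCTTTCCgtctcaggtc
RPL9, chr4:39458905-39458934, minus strand: cgtaatgacgacagacgttctttctttgct
RPL37A, chr2:216498832-216498861, plus strand: ccgcgtctcttcCTTTCTgggctcggacct
RPL27A, chr11:8682780-8682809, plus strand: gcgaaggccttcCTTTTTCgtctgggctgc
RPS13, chr11:17077650-17077679, minus strand: cactctcgctctCCTTTCgttgcctgatcg
RPL7A, chr9:133348206-133348235, plus strand: caattccctttcCTTTCTCTCTCCTCCCgc
RPS4X, chrX:72277231-72277260, minus strand: gtctccagccccaatttctacgcgcaccgg
The first 4 genes held a smaller share of the family in resistant cells and the last 5 a larger one, and both sets contain long runs and a member with none at the listed start. A C start with at least 5 pyrimidines was present in 46 of the 62 members (74.2%), against 5.14% of all genes in the RefSeq table and 7.04% of those tested. Among the 21 members that were lower in resistant cells when both genotypes were averaged, 13 of the 14 with an entry had it. Among the other members, 33 of 48 had it. The median log2 fold change was -0.41 for the 46 members with the tract and -0.25 for the 16 without, and both ranges spanned members on either side of 0.

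Other promoter words were searched on both strands of the 300-base window from 250 bases before to 50 after the start. TCTCGCGA was present in 12 of 62 members (19.4%), in 1.37% of all genes in the table and in 2.57% of those tested. CCGGAAG, the core bound by ETS factors, was present in 35.5%, 12.2% and 20.7%. AAGATGGC, a word bound by YY1, was present in 9.68%, 3.52% and 5.93%, and CTTTCC in 48.4%, 30.2% and 32.3%. Mitochondrial ribosomal protein genes held CCGGAAG in 42.6% and AAGATGGC in 30.9% of windows, against 35.5% and 9.68% in the members. None of these is a count of bound sites, and members with lower and not lower RNA held CCGGAAG in 35.7% and 35.4% of windows.

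Ribosomal protein genes took 2.79% to 7.33% of all counts, and the libraries of a group differed as much as the groups did. The share was 7.10%, 6.64% and 4.62% in parental libraries 1, 2 and 3, and 7.33%, 6.68% and 4.64% in parental knockout libraries 1, 2 and 3. It was 2.79%, 5.68% and 4.59% in resistant libraries and 5.46%, 4.71% and 6.81% in resistant knockout libraries. Parental library 3 and parental knockout library 3 were the low ones of the parental line, and resistant library 1 was the lowest of all 12. Group means were 6.12% ± 1.32, 6.22% ± 1.40, 4.36% ± 1.46 and 5.66% ± 1.06 (SD, n = 3 each), and without resistant library 1 the resistant mean was 5.14%. The 4 groups overlapped.

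**Figure D1:**
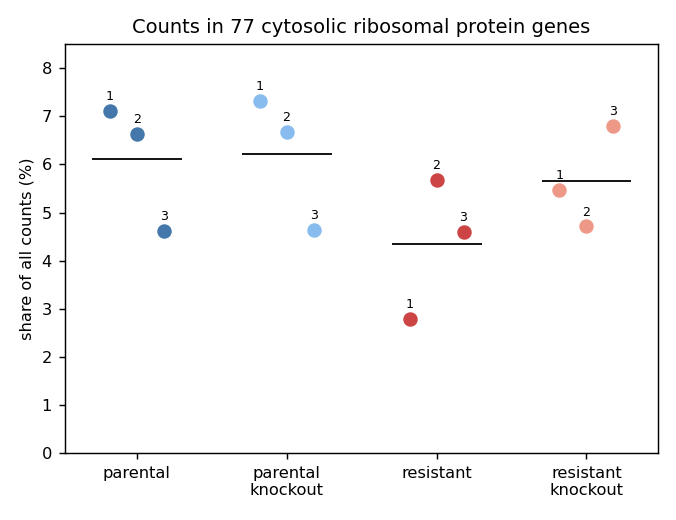
Share of all counts (%) in the 77 ribosomal protein genes. Points are libraries with their numbers, and horizontal lines are group means (n = 3). Resistant library 1 is lowest at 2.79%, and the parental-background libraries numbered 3 lie at 4.62% and 4.64%.

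The low and high libraries also differed in other genes. In resistant library 1, the 1291 non-member genes with transcripts under 1 kb had a median log2 deviation from their 12-library mean of -0.30, and the 2650 genes over 4 kb one of 0.07. In resistant knockout library 3, where members were high, the corresponding medians were 0.25 and -0.16. In parental library 3 they were -0.15 and 0.18. Other libraries did not follow this order: the low parental knockout library 3 had -0.05 and -0.05, the highest library, parental knockout 1, had 0.01 and -0.11, and parental library 2 and parental knockout library 2, both high, had 0.04 and 0.22 and 0.07 and 0.11. Members are mostly short, with a median mRNA of 646 bases, and the part of transcript length in the library differences was not tested. The mitochondrial ribosomal proteins, the separate set that serves the organelle's own ribosome, took 0.240% of counts in resistant library 1, the lowest, and 0.606% in resistant knockout library 3, the highest. Mitochondrially encoded transcripts took 7.42% in resistant library 1, within the 5.34% to 16.3% of all libraries.

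Both subunits moved together from library to library. Small subunit genes held 36.9% to 39.2% of the family's counts in every library, over a 2.79% to 7.33% range of the whole. Within groups, the median coefficient of variation of a member was 22.4%, 21.6%, 31.2% and 28.4% in CPM for parental, parental knockout, resistant and resistant knockout libraries. Taken as a share of the family's counts, the medians were 12.3%, 12.6%, 8.80% and 9.14%, with single members reaching 47.3%.

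The first comparison asked how cisplatin-resistant cells differ from parental cells with both demethylase genes intact. Among the 77 members, 9 fell and 0 rose. RPLP0, the stalk protein that anchors the factor-binding P-protein pairs, was at 3070.5, 3387 and 2162 CPM in parental and at 755, 1090 and 1123 CPM in resistant libraries. The groups did not overlap, and the log2 fold change was -1.54 ± 0.36 (SE; edgeR adjusted p = 0.00717). RPL13A, whose introns carry small nucleolar RNAs and whose protein has been described as a silencer of inflammatory mRNAs, was at 2609, 3015 and 1783 CPM against 740.2, 1071 and 888 CPM. It fell by 1.46 on the log2 scale (SE 0.38, edgeR adjusted p = 0.0129). RPL9 was at 734, 897 and 448 CPM against 210, 395 and 225 CPM. Every resistant library was below every parental one, and RPL9 fell by 1.32 on the log2 scale (SE 0.35, edgeR adjusted p = 0.0146).

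Members that also fell included RPL12 (-1.28), which lies beside RPLP0 at the stalk base, RPL28 (-1.17), RPL21 (-0.99), RPS3A (-0.99) and RPL34 (-0.94), with edgeR adjusted p from 0.0191 to 0.0411. The 9 are 11.7% of the members, near the 12.8% of all 17947 tested genes that were lower, while 15.2% of genes rose and no member did. The median member log2 fold change was -0.49, with 65 of 77 below 0, and that of all genes was 0.02. At an unadjusted p under 0.05, 26 members were lower and 0 higher, beside 3426 and 3773 of the 17947 genes.

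The number of members called lower changed when single libraries were left out. Only the count without resistant library 1 has the share of all genes beside it. For the other counts in this paragraph, a change in the members cannot be told apart from a change in calls over all genes. The count of lower members was 2 without resistant library 1, when 9.08% of all genes were lower, 2 without resistant library 3, 1 without parental library 2, 3 without parental library 1, 4 without resistant knockout library 1 and 16 without parental library 3. The median was -0.30 without resistant library 1, -0.71 without resistant library 2 and -0.71 without parental library 3. With the replicate number as a block and only the 2 groups in the fit, 3 members fell. RPLP0 passed in all 24 alternatives run for this comparison.

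The same comparison among the double knockouts gave 2 higher and 3 lower members. RPL37A, a zinc-finger protein of the large subunit, was at 489, 502 and 410.1 CPM in parental knockout and at 880, 791 and 1094 CPM in resistant knockout libraries, with no overlap. It rose by 0.98 ± 0.30 on the log2 scale (edgeR adjusted p = 0.0320). RPL23A, which lies at the exit of the nascent chain tunnel, was at 133, 142 and 181 CPM against 262, 206 and 437 CPM. It also did not overlap and rose by 0.99 ± 0.32 (edgeR adjusted p = 0.0410). RPL23A has 91 pseudogene rows in the count table, more than any other member, and reads on them equalled 12.7% of its own, so its count may depend on how reads shared with copies were assigned.

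The lower members included RPL9 (-1.22) and RPLP0 (-1.07), with edgeR adjusted p of 0.0245 and 0.0444. RPLP0 reached 2020.3 CPM in resistant knockout library 3 and 1045 and 973 CPM in the other two, against 2748, 3413 and 2291 CPM in parental knockouts. The 2.6% of members that rose and 3.9% that fell lie below the 13.6% and 10.2% of all genes tested, and the median member log2 fold change was -0.29. Calls among members changed when libraries were left out, but the share of all genes called in those fits is not given beside the counts. Whether the members differ from other genes in this cannot be read from them. No member was lower when library 1 or 2 of either knockout group was left out. One was lower without resistant library 3 and 5 without resistant knockout library 3. No member was higher after leaving out library 1 of the parental, parental knockout or resistant knockout group, library 2 of the parental knockouts, or library 3 of the resistant knockouts. One was higher after leaving out library 2 of the parental, resistant or resistant knockout group, or library 3 of the parental knockouts or resistant cells. With a replicate block and only these 2 groups, 0 members passed in either direction.

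With both genotypes averaged, 6 resistant-background libraries against 6 parental-background ones, 21 members fell and 2 rose. This contrast combines the previous pair and is not independent of it. RPLP0 was lowest at -1.30 ± 0.25 (edgeR adjusted p = 0.00116), followed by RPL9 at -1.27 ± 0.25 (edgeR adjusted p = 0.00129) and RPL13A at -1.26 ± 0.27 (edgeR adjusted p = 0.00211). RPL28 fell by 0.97, RPL12 by 0.93 and RPL21 by 0.86 on the log2 scale. Smaller falls, from -0.82 to -0.59, included RPL37, RPL34, RPS16, RPS3A, RPS27A, RPS19, RPS21, RPLP1, RPL22 and RPL30. RPL37A rose by 0.79 ± 0.21 (edgeR adjusted p = 0.00943) and RPL23A by 0.62 ± 0.23 (edgeR adjusted p = 0.0409).

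The lower members were 27.3% of the family against 21.4% of all genes, and the higher ones 2.6% against 22.8%. The median member log2 fold change was -0.46 with 61 of 77 below 0, while that of all genes was 0.01. By subunit, 9 of 31 small subunit genes fell (median -0.48) and 12 of 46 large subunit genes fell with 2 that rose (median -0.39). RPLP0, RPL9, RPL13A, RPL28 and RPL37A passed in all 22 alternatives. Except for the fit without resistant library 1, the counts that follow stand without the share of all genes called in the same fit. They therefore do not set the members apart from other genes. The number that fell was 8 without parental library 2, 11 without parental library 1, 13 and 10 without parental knockout libraries 1 and 2, 11 (19.8% of all genes) and 12 without resistant libraries 1 and 3, 10 and 9 without resistant knockout libraries 1 and 2, and up to 36 without both parental-background libraries numbered 3. RPL23A passed in 14 of the 22 and lost its call when library 1 or 2 of the parental or parental knockout group, 2 or 3 of the resistant group or 1 or 3 of the resistant knockouts was left out.

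**Figure D2:**
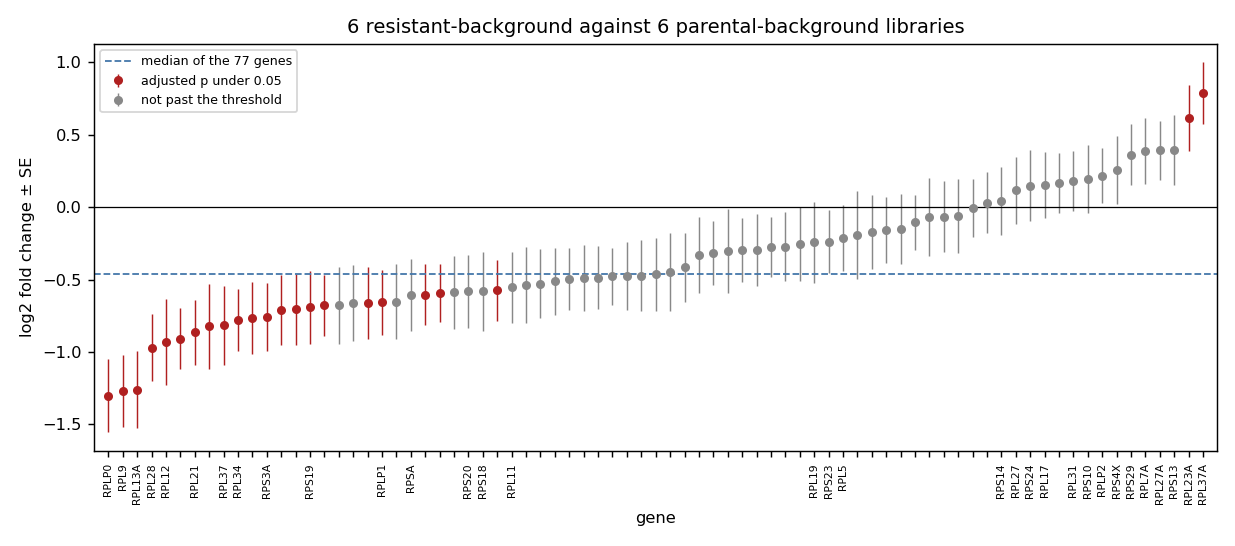
Log2 fold change ± SE (vertical axis) of each of the 77 members, 6 resistant-background against 6 parental-background libraries, ordered by size, with names for members the text describes. Red points passed an edgeR adjusted p of 0.05, 21 lower and 2 higher. The dashed line is the member median of -0.46.

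The members that build 1 structure did not all move alike. In the acidic stalk, which recruits elongation factors, RPLP0 and RPLP1 fell on average (-1.30 and -0.66) and their partner RPLP2 was at 0.22 ± 0.19 (edgeR adjusted p = 0.370). RPLP2 was at 361, 372 and 302 CPM in parental libraries, 352, 398 and 386 in parental knockouts, 272, 444 and 403 in resistant libraries and 449, 393 and 579.9 in resistant knockouts, so the groups overlapped. RPLP1 was at 1122, 1207 and 959 CPM, then 967, 1209 and 1049.6, then 489, 635 and 662, then 632, 563 and 1193 CPM in the same order, and resistant knockout library 3 overlapped the parental range. RPSA, which is also known as the laminin receptor precursor, was at -0.61 ± 0.25 (edgeR adjusted p = 0.0621). It spanned 926 to 1234 CPM in the parental background and 409 to 1022 CPM in the resistant one.

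RPL5 and RPL11, which carry 5S ribosomal RNA and restrain MDM2 when they are free of the ribosome, did not pass the test, at -0.21 and -0.55. In the head of the small subunit 4 of 13 fell and 0 rose, with a median of -0.58. Around the nascent chain tunnel 1 of 8 rose and 0 fell, with a median of -0.13. Of the 9 members listed as mutated in Diamond-Blackfan anaemia, a congenital failure of red cell production, 2 fell, RPS19 among them. Over all genes, 21.4% were lower and 22.8% higher, so 2 of 9 is at the share of all genes. The subgroup differences were not tested against each other.

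Members also differed between the lines in their proportions. As a share of the family's counts, RPLP0 was 4.52%, 4.63% and 4.58% in parental libraries and 3.94%, 4.59% and 4.45% in parental knockouts. It was 2.58%, 2.01% and 2.60% in resistant libraries and 2.10%, 2.29% and 2.86% in resistant knockouts. All 6 resistant-background libraries were lower, including the one with the low total. RPL37A went the other way, from 0.759%, 0.789% and 0.838% in parental and 0.700%, 0.675% and 0.796% in parental knockout libraries to 1.69%, 1.80% and 1.78% in resistant and 1.76%, 1.86% and 1.55% in resistant knockout libraries. Its mean share was 2.29 times as high in the resistant background.

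In these shares 7 members were lower in every resistant-background library and 11 were higher in every one. The lower members included RPLP0, RPL13A, RPL9, RPL28, RPL21 and RPL34, with ratios of mean share from 0.540 to 0.789. The higher members were RPL37A, RPS13, RPL27A, RPL7A, RPS4X, RPLP2, RPS10, RPL17, RPS24, RPL27 and RPS14, with ratios from 2.29 down to 1.38. RPS4X, the X-linked small subunit gene, held 1.25% to 1.69% of the family in the parental and 2.09% to 2.54% in the resistant background. RPL7A, a large subunit protein whose introns also carry small nucleolar RNAs, went from 1.50% to 2.43% up to 2.95% to 3.50%. The 9.09% and 14.3% of members compare with 4.05% and 15.1% of all genes that were lower and higher without overlap when counts were divided by the same family sum. In CPM 4 members were lower without overlap (RPLP0, RPL9 and RPL34 among them; 5.19%, against 10.1% of all genes) and 0 were higher (against 13%).

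**Figure D3:**
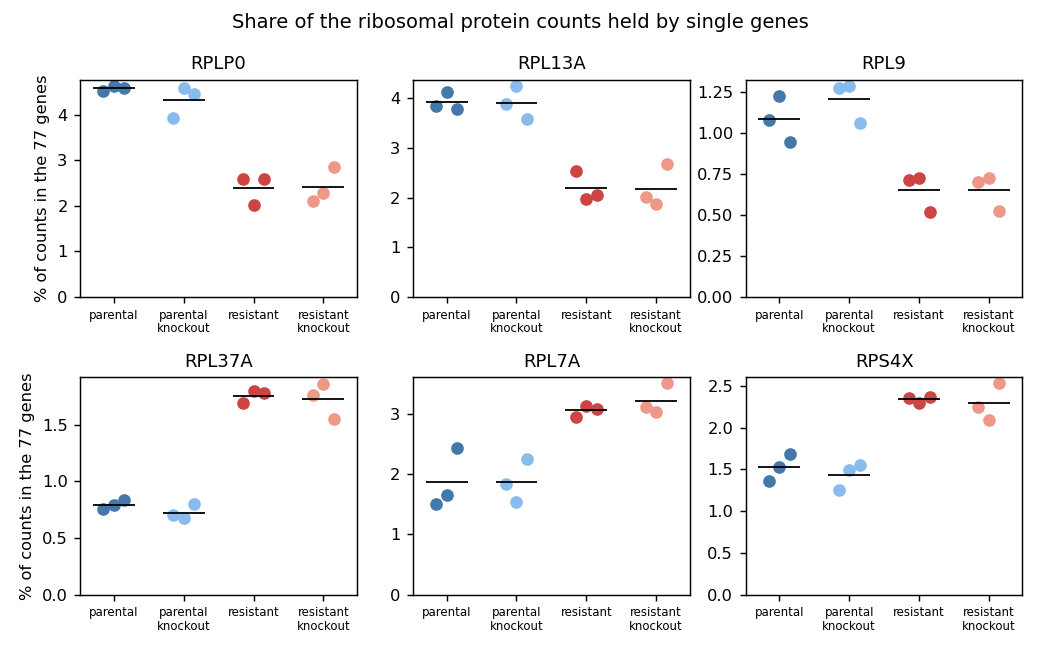
Share of the family's counts (%) held by 6 members, by group. Points are libraries in numerical order and lines are means (n = 3). RPLP0, RPL13A and RPL9 are lower, and RPL37A, RPL7A and RPS4X higher, in all 6 resistant-background libraries.

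A fit with the family sum as the scale, which centres the members near 0 (median -0.01) and puts the median of all genes at 0.45 by construction, called 4 members lower and 12 higher over both genotypes, 5.19% and 15.6% against 8.03% and 29.9% of all genes. In resistant against parental cells it called 1 lower (RPLP0) and 3 higher (RPL37A, RPL27A and RPS13), beside 4.18% and 19.7% of all genes. Among the knockouts it called 0 lower and 1 higher (RPL37A), beside 3.61% and 11.1%. RPLP0 (-0.89), RPL13A (-0.84), RPL9 (-0.81) and RPL28 (-0.56) were lower relative to the rest of the family. RPL37A (1.20), RPL23A (0.95), RPS13 (0.82), RPL27A (0.80), RPS29 (0.80), RPL7A (0.75), RPS4X (0.65), RPLP2 (0.62), RPL31, RPS10, RPL17 and RPS24 were higher. In CPM 10 of these 12, all but RPL37A and RPL23A, did not pass. RPS13 for instance was at 268, 270.4 and 154 CPM in parental and 171, 382 and 301 CPM in resistant libraries.

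As a description, deviations of the 77 log2 shares from their means over 12 libraries correlated with a median r of 0.55 (range -0.02 to 0.93) over the 30 pairs of libraries from 1 background and -0.57 (range -0.82 to -0.19) over the 36 pairs across backgrounds. These pairs share libraries and a common mean, which pushes the second set below 0.

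**Figure D4:**
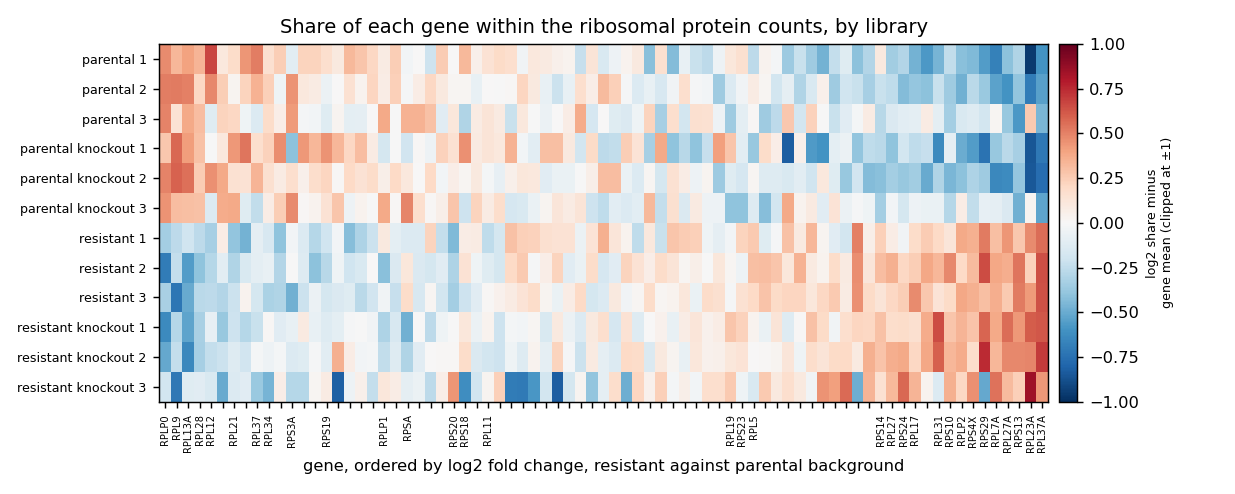
Log2 share of each member (columns, ordered as in the plot of fold changes) within the family's counts, minus its mean over 12 libraries (rows), with colours clipped at ±1. Resistant library 1 has the colours of its background although its total share was the lowest.

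No member passed the threshold in either knockout contrast. The same fit called no gene lower in either background, so it also missed KDM5A, whose RNA was below every control in all knockout libraries. The absence of calls therefore does not show that members were unchanged. In the parental background 0 members were called by edgeR, 0 had an unadjusted p under 0.05, and 0 (0%) of all genes were called, with 539 of 17947 at an unadjusted p under 0.05. DESeq2 and limma-voom also called 0 members. The median member log2 fold change was 0.05, and members ran from -0.21 (RPL12) to 0.33 (RPS19). RPS19, the gene most often mutated in Diamond-Blackfan anaemia, was at 1019.6, 937 and 579.9 CPM in parental and 1275, 1154 and 762 CPM in parental knockout libraries. The groups overlapped, while the knockout was the higher library in each of the 3 same-numbered pairs, and no fit with the replicate block called a member in this contrast. The median member deviated from its 12-library mean by 0.33, 0.42 and -0.22 (log2) in parental libraries 1, 2 and 3 and by 0.36, 0.46 and -0.08 in the parental knockouts, so library 3 stood below the others in both genotypes.

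In the resistant background 0 members were called as well, and 0.212% of all genes were, each of them higher. The median member log2 fold change was 0.36, with 74 of 77 above 0, beside 0.04 for all genes. RPS20 was at 278, 564 and 440.4 CPM in resistant and 642, 553 and 1233 CPM in resistant knockout libraries, at 0.92 ± 0.36 (edgeR adjusted p = 0.527). RPL23A (0.69 ± 0.32, edgeR adjusted p = 0.627) was the only other member with an unadjusted p under 0.05. The low resistant library 1 and the high resistant knockout library 3 bore on this median, which was 0.16 without the first, 0.15 without the second and 0.56 without resistant library 2. Relative to the family sum it was -0.01, a value that scaling to these same genes puts near 0 by construction. For the difference between the 2 knockout effects, 0 members and 0.0279% of all genes were called, and the member median was 0.32. That median was 0.11 without resistant library 1, 0.07 without resistant knockout library 3, 0.19 without parental library 2, 0.18 without parental knockout library 3 and 0.52 without resistant library 2.

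Across members, mean CPM per kilobase of the shortest annotated coding transcript was highest for RPS18 (2459), RPLP1 (2001) and RPL19 (1988). It was lowest for RPS23 (74.9), RPL37 (84.1) and RPL27A (95.7), whose listed transcripts of 3437, 7686 and 4916 bases are far longer than the median of 646, so their low values rest on that length. RPS10 had the lowest mean count, 61.1 CPM, and overlaps the readthrough gene RPS10-NUDT3 on the same strand. In all 9 members overlap another gene on their strand, RPS13 among them. The averaged log2 fold change had an r of 0.10 with mRNA length and of -0.31 with log2 mean CPM, over the same 77 genes and 12 libraries, as a description.

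Members were also set beside the genes around them. For each member the averaged log2 fold changes of non-member genes within 2 Mb were summarised by their median. It was 1.08 around RPL37A (24 genes), 0.78 around RPLP2 (75 genes) and 0.47 around RPL23A (57 genes), and -0.86 around RPL9 (28 genes) and around RPS3A (10 genes) and -0.83 around RPL21 (21 genes). Other members went against their surroundings. The median was 0.71 around RPL26 (100 genes; member -0.19), 0.70 around RPS12 (18 genes; member -0.68) and 0.48 around RPL13 (60 genes; member -0.30), none of which passed the test. Around RPLP0 and RPL13A, 2 of the 3 most reduced members, it was -0.11 (52 genes) and 0.07 (130 genes). Over the 77 members, r was 0.51 and rho 0.46, where all points share the 12 libraries and members that lie close together share neighbours.

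Genes that make or regulate ribosomes are given next, from lists chosen for their function, for the contrast over both genotypes. The 14 host transcripts of small nucleolar RNAs, 1 of them the protein-coding RNA polymerase I factor gene TAF1D, encode no ribosomal protein and had the same start tract in 5 of 12 RefSeq entries (41.7%). All 14 fell, with a median of -2.24, against the 21.4% of all genes that were lower. ZFAS1 fell by 3.35 on the log2 scale (SE 0.56, edgeR adjusted p = 0.000427), and was at 317, 243 and 33.6 CPM in parental, 274, 264 and 33.4 in parental knockout, 11.4, 18.3 and 19.6 in resistant and 20.9, 17.5 and 27.3 CPM in resistant knockout libraries. The parental-background libraries numbered 3, which were also low in members, lay near the resistant range. SNHG1 (-3.11) was likewise at 1488 and 1838 CPM in parental libraries 1 and 2 but 347 CPM in library 3, and GAS5 (-2.65) at 1199, 942 and 193 CPM.

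Over all genes tested, 21.4% were lower and 22.8% higher in this contrast. Of 40 ribosome biogenesis factors, 14 (35%) fell and 1 (2.5%) rose (median -0.63). NOLC1, a nucleolar chaperone of small nucleolar particles, fell by 1.73, GAR1 of the pseudouridylation particles by 1.53 and NOP14 of the small subunit processome by 1.50 on the log2 scale. WDR75, also of the processome, rose by 1.20. Of 26 subunits and factors of RNA polymerases I and III, which transcribe ribosomal RNA, 8 (30.8%) fell and 3 (11.5%) rose (median -0.42). POLR1F was at -1.93 and POLR3G at 1.48. Of 23 regulators of mTOR and TOP mRNAs, 8 (34.8%) fell and 2 (8.7%) rose (median -0.48). SESN2, a leucine-sensing mTORC1 inhibitor, fell by 2.76, and MYC, which drives ribosome production, by 1.94. MYC was at 182, 312 and 47.9 CPM in parental and 24.3, 57.1 and 93.0 CPM in resistant libraries, so these groups overlapped. LARP1 did not pass (-0.29, edgeR adjusted p = 0.159).

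Translation factors and other coding genes with TOP starts were mixed, with 7 of 26 (26.9%) lower and 3 (11.5%) higher and a median of -0.05. TPT1 fell by 1.71 and PABPC4 by 1.21 on the log2 scale, EIF3F rose by 1.27, and the elongation factor EEF1A1 was at 0.09 ± 0.22 (edgeR adjusted p = 0.755). Of 77 mitochondrial ribosomal proteins tested, 14 (18.2%) fell and 10 (13%) rose (median -0.24). Both shares lie below the 21.4% and 22.8% of all genes. Among these proteins, MRPL17, MRPL23 and MRPL52 rose by 1.29, 1.29 and 1.26. Of 10 paralogs and fusion genes outside the symbol rule, 3 (30%) rose and 1 (10%) fell. RPL26L1, the near copy of RPL26, was at 10.1, 15.6 and 7.66 CPM in parental and 28.5, 66.5 and 60.5 CPM in resistant libraries and rose by 2.17 (SE 0.29, edgeR adjusted p = 7.48e-05). RPL22L1 fell by 1.76 and RPS27L, a p53 target, rose by 1.16. Of 70 tested rows whose symbols match a pattern for pseudogenes, 17 (24.3%) fell and 5 (7.14%) rose (median -0.44, beside -0.46 for the members). That pattern also takes in the members RPLP0, RPLP1 and RPLP2, and RPLP0 and RPLP1 are among the rows that fell. The values are therefore not those of pseudogenes alone and partly set the members beside themselves.

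**Figure D5:**
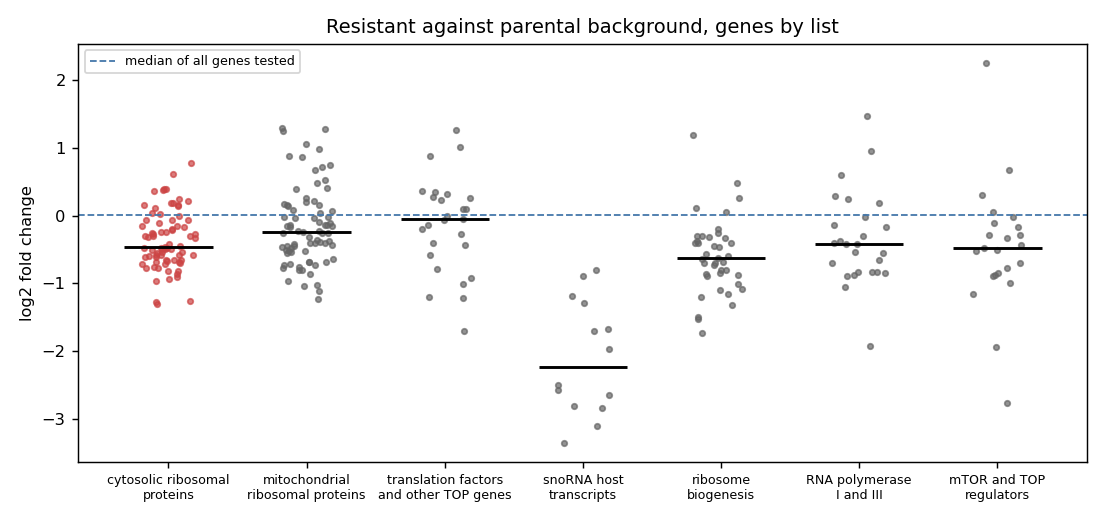
Log2 fold change of single genes, resistant against parental background over both genotypes, for the members (red) and companion lists (grey). Black lines are list medians and the dashed line is the median of all genes tested. Host transcripts of small nucleolar RNAs have a median of -2.24, the members -0.46.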

How the data were processed

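Poly(A)-selected directional RNA-seq libraries of 4 groups with 3 libraries each were analysed. The deposited values are raw gene counts, made by the authors, per the submitters' processing notes, by trimming in Trim Galore 0.6.10, alignment in STAR 2.7.10a to GRCh38, and counting in featureCounts 2.0.1. The sources used here do not give the annotation, the strand setting or the treatment of multi-mapping reads. Reads shared by a member and its pseudogenes could therefore be dropped or split. Both deposited copies held the same values in all 833588 cells compared. Of the gene identifiers, 57380 were in GENCODE 29, which supplied lengths and positions.

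Totals were 15659352 to 19706754 counts per library. Counts were analysed in edgeR 4.0.16 (R 4.3.3): filterByExpr, TMM factors, a robust quasi-likelihood fit of 12 libraries with 1 mean per group, 6 contrasts, and Benjamini-Hochberg adjustment over 17947 genes at 0.05. CPM used TMM-scaled sizes; shares used raw counts. The fit was also run on simulated counts, drawn independently for each gene and library. Those counts hold no deviation shared by the genes of a library or by same-numbered libraries, so that run does not cover such deviations. Alternatives were other scalings (including the family sum), filters, DESeq2 1.42.0, limma-voom 3.58.1, fits of only the groups compared, replicate blocks, and left-out libraries; leaving out resistant library 1 with parental library 3 was added after seeing the data. Motifs were read from RefSeq promoter windows. Same-numbered parental and parental knockout libraries deviated together (r = 0.71, 0.84 and 0.83 over genes); resistant and resistant knockout ones did not all (0.60, -0.24 and 0.69).

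Members and gene lists were chosen with earlier results of these data known. Named members are those that passed (up to 8 per contrast and direction by size), the stalk proteins and RPSA, the 3 highest and 3 lowest per kilobase, and the 3 furthest from the family median on each side per contrast; some members are not reported here by name. In companion lists they are up to 3 passing genes by size with at least 5 CPM in the higher group. Other names (such as the rest of the passing members, RPL5, RPL11, GAS5, LARP1 and EEF1A1, and members without overlap) were added after their values were seen.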

Additional observations from a re-analysis of the deposited data

How the results depend on the processing

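No member called in the main fit changed sign in the alternatives run. These refit the same libraries or part of them, so a kept sign is not independent support. The member median of resistant against parental cells changed sign on the family sum, a scale that puts it near 0 by construction. In the resistant against parental comparison, the 9 lower members became 18 with DESeq2, 5 with a filter of 1 count, 4 with only the groups compared, 3 with the replicate block in those groups, 19 without both parental-background libraries numbered 3, 4 without resistant library 1 and parental library 3, and 1 scaled to the family sum, where 3 were higher and the median was 0.10. Among knockouts, the 2 higher and 3 lower members became 1 and 0 on the family sum, 1 and 1 with only the groups compared, 0 and 0 with the replicate block in those groups, and 1 and 6 without both libraries numbered 3; 1 was higher with the filter of 1 count and 1 lower with library size alone. Over both genotypes, the 21 lower members became 36 without both libraries numbered 3. With library size alone, 11 of 77 members and 3138 of 17947 genes were lower, a smaller share of the members than of the genes. On the family sum 4 members were lower and 12 higher, beside 8.03% and 29.9% of all genes, and the median was -0.015. Other counts of members in this paragraph stand without the share of all genes called in the same fit. Leaving out 1 library at a time gave 1 to 16, 0 to 5 and 8 to 31 lower members in these 3 comparisons, and 0 to 2 and 1 to 2 higher ones in the last 2. Replicate blocks left 0 members called in both knockout contrasts, and, fitted over all 12 libraries, gave 0 higher and 10 lower, 2 and 2, and 2 and 17 members in the 3 comparisons. Library size alone put the median of all genes at 0.15 among knockouts and 0.12 over both genotypes, and the family sum at 0.62, 0.28 and 0.45 in the 3 comparisons. The cause of these shifts was not tested. Every member passed the filter on low counts. The parts of depth and of spread between libraries in the precision were not tested.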
